A study of Mus musculus with 27 samples.

Results

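The multiciliated cell genes were a list of 40 mouse genes whose products control, build or move the motile cilia of multiciliated cells. The list was proposed after Foxj1, a regulator of motile cilia, had been seen lower at day 11 after 7 Gy in these same libraries. Its members were chosen by name and kept where at least 10 counts were summed over the 27 libraries, so they were selected on measured counts, and Foxj1 was selected on the 7 Gy contrast of day 11. All 40 listed genes passed that minimum. The whole table held 50559 genes, of which 22415 had at least 10 counts and 15491 had none.

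The libraries came from mouse thyroid gland organoids, which are small cell clusters grown in gel from dissociated thyroid tissue, here of C57BL/6 mice aged 8-12 weeks. Organoids were left non-irradiated or received 2, 4 or 7 Gy of photons on day 5, and RNA was taken on day 5 (non-irradiated), day 7 and day 11. Each of the 9 groups of day and dose had 3 libraries, from cultures mTG11, mTG12 and mTG14, and values below are given in that order of cultures. Levels are CPM, the counts of a gene scaled to a library total of 1000000, and errors are standard deviations over 3 libraries unless named otherwise.

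Median library totals were 2900966 counts at day 5 (range 2630564 to 3507863). At day 7 they were 3838187 without irradiation (3772966 to 3886276), 2738496 after 2 Gy (2528866 to 4591357), 4416921 after 4 Gy (3430300 to 5010592) and 3891869 after 7 Gy (3758142 to 3989606). At day 11 they were 3729869 without irradiation (3636887 to 4200268), 3755138 after 2 Gy (3589753 to 4469099), 3700628 after 4 Gy (3622848 to 4444834) and 5557026 after 7 Gy (3661836 to 5723150). A count of 0 in a library allowed a level of up to 0.524 CPM in the deepest library and 1.19 CPM in the shallowest (3 counts, counting error only).

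Multiciliated cells carry many motile cilia on the surface that faces a lumen, where the beat of the cilia moves fluid. They line the airways, the oviduct and the brain ventricles, and ciliated cells are also known from cysts of the ultimobranchial body in the thyroid gland. Their formation starts with the coiled-coil regulators Gmnc and Mcidas, goes on with centriole amplification through Ccno and Deup1, and ends with the axoneme genes that Foxj1 and RFX factors switch on.

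Most members had few counts. Tekt2 (23 counts over 27 libraries), Dnai1 (27), Cfap52 (28) and Dnah9 (31) had the lowest totals, and none of the members was under 10. The other members under 100 counts were Hydin (47), Cfap44 (48.3), Gmnc (53), Rsph4a (53.7), Tekt4 (54), Pifo (64), Cdc20b (69.8), Ccdc113 (83), Sntn (86), Spag17 (87), Tekt1 (87), Dnah5 (88) and Cfap53 (99), so that 17 of 40 members were low-count genes. A further 17 members had from 100 to under 500 counts: Deup1 (109), Ccdc39 (122), Mcidas (122.1), Drc1 (132), Dnai2 (149), Mlf1 (150.0), Ccdc40 (154), Dynlrb2 (164), Zmynd10 (177), Ccdc153 (246), Ccno (255), Rsph9 (306), Myb (338), Lrrc23 (408), Tppp3 (467), Cfap43 (467) and Rsph1 (495). The remaining 6 were Rfx3 (533), Rfx2 (536), Cfap126 (554), Foxj1 (625), Trp73 (775) and Tubb4b (29190.01). Dnai1 and Dnai2 stood in the table under their older symbols Dnaic1 and Dnaic2.

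Members came into view with time. At day 5, 19 of 40 members had 0 counts in all 3 libraries and 12 had a count in every library. At day 7, 9, 6, 4 and 1 members were at 0 throughout their group after 0, 2, 4 and 7 Gy, and 15, 16, 19 and 16 had a count in every library. At day 11 no member was at 0 throughout a group, and 39, 30, 29 and 33 members had a count in every library after 0, 2, 4 and 7 Gy.

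Tubb4b, a beta tubulin that many cell types make, held most of the members' counts and was left out of sums over members. Summed over the other 39 members, the multiciliated cell genes were at 45.7, 37.3 and 60.0 CPM at day 5. Their day 7 sums were 47.5, 46.7 and 35.1 CPM without irradiation, 41.4, 40.2 and 39.1 after 2 Gy, 46.3, 55.6 and 32.7 after 4 Gy and 34.2, 54.1 and 34.2 after 7 Gy. Their day 11 sums were 254, 256 and 133 CPM without irradiation, 109, 116 and 59.1 after 2 Gy, 121, 75.8 and 58.3 after 4 Gy and 78.5, 112 and 60.9 after 7 Gy. All non-irradiated day 11 libraries lay above every other library, day 5 and day 7 libraries overlapped each other at every dose, and the irradiated day 11 libraries ran from the level of the highest day 5 library to just under the lowest control. Culture mTG14 had the lowest day 11 sum without irradiation, after 2 Gy, after 4 Gy and after 7 Gy. These are levels in bulk RNA: fewer multiciliated cells and less RNA of these genes per cell cannot be told apart.

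**Figure D1:**
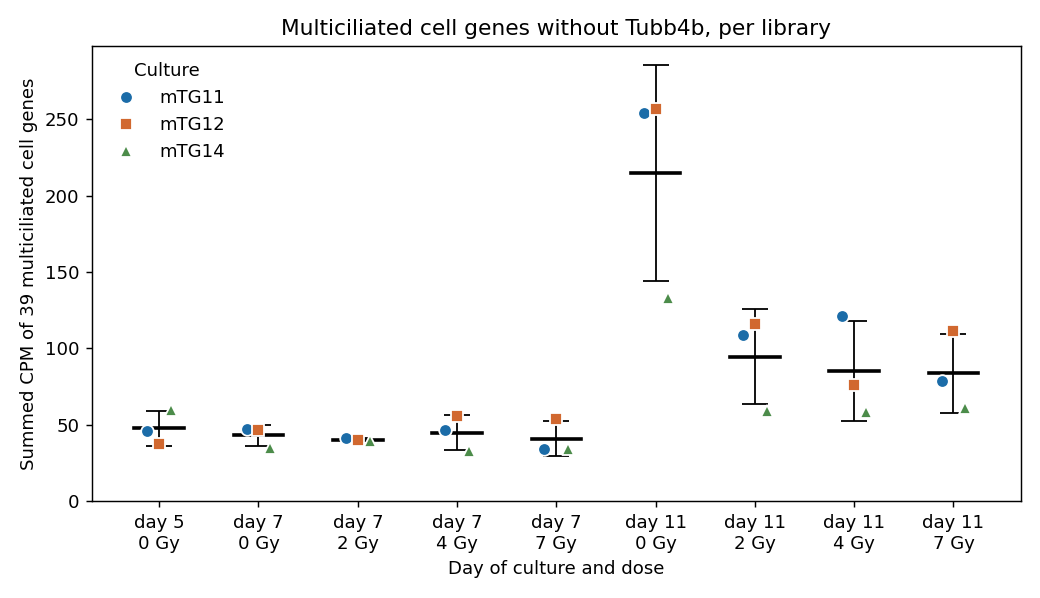
Summed CPM of the 39 multiciliated cell genes other than Tubb4b (vertical axis) in each of the 27 libraries by day and dose (horizontal axis), with points for cultures mTG11, mTG12 and mTG14 and bars for the mean and standard deviation of 3 libraries. The non-irradiated day 11 libraries sit between 133 and 256 CPM, and the irradiated day 11 libraries between 58.3 and 121 CPM.

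Within each culture the sum at day 11 was lower after irradiation at each of the 3 doses. The irradiated sums were 0.428, 0.452 and 0.445 of the culture's own non-irradiated sum after 2 Gy, 0.477, 0.296 and 0.438 after 4 Gy and 0.309, 0.435 and 0.458 after 7 Gy. Without Trp73, Rfx2 and Rfx3, which other cells in the organoids may also express, these ratios were 0.393, 0.419 and 0.386 after 2 Gy, 0.445, 0.259 and 0.353 after 4 Gy and 0.253, 0.381 and 0.346 after 7 Gy. At day 7 the ratios of the whole sums lay on both sides of 1, at 0.870, 0.861 and 1.12 after 2 Gy, 0.974, 1.19 and 0.932 after 4 Gy and 0.720, 1.16 and 0.975 after 7 Gy. Without Trp73, Rfx2 and Rfx3 the day 7 ratios were 0.865, 0.778 and 1.38 after 2 Gy, 0.936, 1.42 and 1.195 after 4 Gy and 0.802, 1.35 and 1.35 after 7 Gy. The same non-irradiated libraries served as the denominator for all doses of a day, and no test was made on the sums. All of these sums include Foxj1, which was selected on the 7 Gy contrast of day 11.

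The regulators split into genes found mostly at day 11 and genes present from day 5. Foxj1 at day 11 was at 26.4, 24.9 and 12.1 CPM without irradiation, 13.0, 9.19 and 5.73 after 2 Gy, 10.0, 6.07 and 4.14 after 4 Gy and 4.98, 10.3 and 3.55 after 7 Gy. Foxj1 at day 7 was at 2.08, 2.65 and 0.257 without irradiation, 1.98, 1.31 and 0.730 after 2 Gy, 0.875, 4.39 and 0.906 after 4 Gy and 0.501, 5.40 and 0.532 after 7 Gy, with 0 in all 3 libraries at day 5. Libraries of day 11 without irradiation held the highest Foxj1 levels, 1 library after 2 Gy (mTG11) overlapped the mTG14 control, and all libraries after 4 or 7 Gy lay below the controls. Mcidas at day 11 was at 5.48, 8.31 and 1.65 CPM without irradiation, 2.24, 0.836 and 1.07 after 2 Gy, 1.62, 0.684 and 0.552 after 4 Gy and 0.699, 1.80 and 0 after 7 Gy. Mcidas at day 7 was at 0.261, 1.33 and 0 without irradiation, 0.791, 0.436 and 0 after 2 Gy, 0.303, 0.998 and 0.226 after 4 Gy and 0, 0.257 and 0 after 7 Gy, with 0, 0.395 and 0.285 at day 5. Mcidas, which switches on the program together with E2F factors, was lower than all controls after 4 Gy, while a library after 2 Gy and another after 7 Gy overlapped the mTG14 control. Gmnc at day 11 was at 1.19, 2.14 and 2.75 CPM without irradiation, 0, 0.836 and 0.266 after 2 Gy, 0.540, 0.225 and 0.552 after 4 Gy and 0.699, 0.540 and 0 after 7 Gy. Gmnc at day 7 was at 0.782, 0.265 and 0 without irradiation, 0, 0.218 and 0.730 after 2 Gy, 0.583, 0.200 and 0 after 4 Gy and 0, 0.514 and 0.532 after 7 Gy, with 0 in all 3 libraries at day 5. Gmnc, which acts upstream of Mcidas, was a low-count gene and lay below the controls at all 3 doses. Ccno at day 11 was at 12.4, 9.38 and 4.95 CPM without irradiation, 4.70, 3.90 and 1.07 after 2 Gy, 4.05, 2.02 and 0.828 after 4 Gy and 1.92, 3.06 and 0.546 after 7 Gy. Ccno at day 7 was at 0.261, 1.59 and 0.257 without irradiation, 1.19, 0.871 and 1.10 after 2 Gy, 1.17, 2.00 and 0.453 after 4 Gy and 2.01, 1.54 and 0.266 after 7 Gy, with 0.345, 0.760 and 0.570 at day 5. Ccno encodes a cyclin needed for centriole amplification, and each irradiated day 11 library lay below each control.

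Broadly expressed regulators behaved in other ways. Myb at day 11 was at 8.09, 7.51 and 4.12 CPM without irradiation, 1.57, 1.67 and 1.33 after 2 Gy, 3.78, 1.80 and 1.66 after 4 Gy and 1.92, 1.98 and 0.546 after 7 Gy. Myb at day 7 was at 5.99, 4.77 and 2.66 without irradiation, 2.77, 1.31 and 3.29 after 2 Gy, 2.72, 2.20 and 2.26 after 4 Gy and 2.26, 2.83 and 2.66 after 7 Gy, with 8.27, 3.80 and 6.56 at day 5. Myb, a transcription factor of progenitors and of early multiciliated cells, lay below the day 11 controls at all 3 doses but was as high at day 5 as in the day 11 controls. Rfx2 at day 11 was at 4.76, 5.90 and 6.60 CPM without irradiation, 6.94, 5.29 and 2.93 after 2 Gy, 5.94, 2.92 and 7.18 after 4 Gy and 5.24, 5.40 and 4.64 after 7 Gy. Rfx2 at day 7 was at 4.69, 2.12 and 4.12 without irradiation, 5.14, 3.92 and 5.84 after 2 Gy, 7.87, 3.79 and 5.89 after 4 Gy and 4.51, 4.88 and 2.93 after 7 Gy, with 6.55, 6.84 and 7.13 at day 5. Rfx2 binds X-box sites, and its day 11 libraries overlapped across all doses. Rfx3 at day 11 was at 11.0, 3.49 and 4.54 CPM without irradiation, 5.48, 4.74 and 7.32 after 2 Gy, 5.94, 3.37 and 2.48 after 4 Gy and 6.99, 5.31 and 7.65 after 7 Gy. Rfx3 at day 7 was at 5.60, 5.83 and 5.79 without irradiation, 3.00, 4.27 and 3.32 after 2 Gy, 4.23, 4.09 and 3.06 after 4 Gy and 2.63, 4.24 and 4.40 after 7 Gy, with 4.83, 5.32 and 6.41 at day 5. Rfx3, its relative, was highest in the mTG11 control, and the other controls lay among the irradiated libraries. Trp73 at day 11 was at 7.14, 6.97 and 7.42 CPM without irradiation, 5.59, 5.29 and 4.79 after 2 Gy, 6.49, 7.42 and 8.28 after 4 Gy and 7.69, 9.36 and 9.01 after 7 Gy. Trp73 at day 7 was at 7.56, 7.69 and 9.26 without irradiation, 7.51, 7.84 and 8.03 after 2 Gy, 6.41, 3.59 and 4.75 after 4 Gy and 3.26, 3.08 and 5.32 after 7 Gy, with 13.4, 11.4 and 19.4 at day 5. Trp73, a relative of p53 that basal cells also make, was highest at day 5. At day 11 its libraries lay below the controls after 2 Gy, on both sides of them after 4 Gy and above them after 7 Gy.

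Deup1, Cdc20b, Dnah5 and Dnah9, genes for centriole amplification and dynein arms, were at 1.80 CPM or below in every library before day 11. Deup1 at day 11 was at 3.81, 4.02 and 2.75 CPM without irradiation, 0.895, 2.23 and 1.86 after 2 Gy, 0.811, 0.675 and 1.66 after 4 Gy and 1.40, 1.44 and 0.273 after 7 Gy. Deup1 at day 7 was at 0.521, 0 and 0 without irradiation, 0.791, 0 and 0 after 2 Gy, 0.583, 0.798 and 0.226 after 4 Gy and 0, 1.80 and 0.266 after 7 Gy, with 0, 0.380 and 0 at day 5. Deup1 builds the deuterosome, on which new centrioles form, and lay below the day 11 controls at all 3 doses. Cdc20b at day 11 was at 3.57, 3.09 and 0.880 CPM without irradiation, 0.448, 0.557 and 1.07 after 2 Gy, 1.35, 1.36 and 0.276 after 4 Gy and 0.349, 1.26 and 0 after 7 Gy. Cdc20b at day 7 was at 0.521, 0 and 0.00772 without irradiation, 0.395, 0.436 and 0.365 after 2 Gy, 0, 0.399 and 0.226 after 4 Gy and 0, 0.257 and 0 after 7 Gy, with 0, 0.380 and 0 at day 5. Cdc20b, another deuterosome gene of low count, overlapped the mTG14 control at each dose. Dnah5 at day 11 was at 5.00, 4.56 and 1.37 CPM without irradiation, 2.24, 1.11 and 0.799 after 2 Gy, 1.35, 0.225 and 0.276 after 4 Gy and 1.05, 1.26 and 0.546 after 7 Gy. Dnah5 at day 7 was at 0.261, 0.265 and 0 without irradiation, 0.395, 0 and 0 after 2 Gy, 0, 0.200 and 0 after 4 Gy and 0, 0.514 and 0 after 7 Gy, with 0 in all 3 libraries at day 5. Dnah5 is a heavy chain of the outer dynein arm, and its mTG11 library after 2 Gy overlapped the mTG14 control while those after 4 and 7 Gy lay below. Dnah9 at day 11 was at 1.43, 1.61 and 1.10 CPM without irradiation, 0.224, 1.11 and 0.266 after 2 Gy, 0, 0.450 and 0 after 4 Gy and 0.175, 0.720 and 0.546 after 7 Gy. Dnah9 was 0 in every library of day 7 and day 5. Dnah9, another outer arm heavy chain, rested on 31 counts in all, and 1 library after 2 Gy reached the lowest control.

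The other dynein genes followed with more spread between cultures. Dnai2 at day 11 was at 4.29, 4.56 and 3.57 CPM without irradiation, 2.01, 5.01 and 1.86 after 2 Gy, 3.51, 1.35 and 0.552 after 4 Gy and 0.874, 2.16 and 1.09 after 7 Gy. Dnai2 at day 7 was at 1.82, 0.265 and 0 without irradiation, 0.395, 0.436 and 0.365 after 2 Gy, 0.292, 0.998 and 0.679 after 4 Gy and 0.251, 0.514 and 0 after 7 Gy, with 0.345, 0 and 0 at day 5. Dnai2 is an intermediate chain of the outer arm, and its mTG12 library after 2 Gy was the highest of day 11. Dynlrb2 at day 11 was at 7.62, 4.29 and 6.05 CPM without irradiation, 1.79, 3.62 and 0.533 after 2 Gy, 4.05, 0.675 and 0.828 after 4 Gy and 1.75, 3.06 and 1.37 after 7 Gy. Dynlrb2 at day 7 was at 0.521, 0 and 0 without irradiation, 0.395, 0.218 and 0 after 2 Gy, 0.292, 1.20 and 0.226 after 4 Gy and 0.501, 0.514 and 0.532 after 7 Gy, with 0 in all 3 libraries at day 5. Dynlrb2, a dynein light chain, lay below the controls at all 3 doses. Zmynd10 at day 11 was at 10.2, 6.70 and 2.75 CPM without irradiation, 2.01, 3.34 and 0 after 2 Gy, 3.78, 0.675 and 1.10 after 4 Gy and 1.22, 1.62 and 0.546 after 7 Gy. Zmynd10 at day 7 was at 0, 2.39 and 0 without irradiation, 0.395, 0.871 and 0 after 2 Gy, 1.46, 2.79 and 0.679 after 4 Gy and 0.251, 0.514 and 0 after 7 Gy, with 0 in all 3 libraries at day 5. Zmynd10 serves the assembly of dynein arms in the cytoplasm, and only its 7 Gy libraries were all below the controls.

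Genes of the doublet microtubules showed a wide range of counts. Tekt1 at day 11 was at 3.33, 5.09 and 1.65 CPM without irradiation, 0.448, 1.39 and 0.533 after 2 Gy, 0.811, 0.450 and 0.552 after 4 Gy and 1.57, 1.08 and 1.09 after 7 Gy. Tekt1 at day 7 was at 0.395, 0.436 and 1.10 after 2 Gy, 0, 0.798 and 0 after 4 Gy and 0, 0.514 and 0.266 after 7 Gy, and 0 in all 3 without irradiation, with 0 in all 3 libraries at day 5. Tekt1 encodes a filament protein inside the doublets and lay below the day 11 controls at all 3 doses. Tekt4 at day 11 was at 2.86, 1.34 and 1.37 CPM without irradiation, 0.671, 0.836 and 0 after 2 Gy, 1.62, 0.225 and 0.276 after 4 Gy and 0.699, 0.360 and 0 after 7 Gy. Tekt4 at day 7 was at 0.521, 0.530 and 0 without irradiation, 0, 0.218 and 0 after 2 Gy, 0, 0.599 and 0.226 after 4 Gy and 0, 0.514 and 0.266 after 7 Gy, with 0 in all 3 libraries at day 5. Tekt4, of the same family, overlapped the controls in 1 library after 4 Gy (mTG11) and lay below them after 2 and 7 Gy. Tppp3 at day 11 was at 18.3, 20.1 and 9.35 CPM without irradiation, 5.37, 7.52 and 2.93 after 2 Gy, 4.59, 2.70 and 1.93 after 4 Gy and 2.27, 6.48 and 3.55 after 7 Gy. Tppp3 at day 7 was at 3.13, 1.06 and 1.54 without irradiation, 0.791, 1.74 and 1.46 after 2 Gy, 1.46, 1.40 and 0.453 after 4 Gy and 1.50, 1.80 and 1.60 after 7 Gy, with 4.48, 2.66 and 9.12 at day 5. Tppp3, a protein that bundles microtubules, lay below the controls at all 3 doses, and its day 5 levels exceeded those of irradiated libraries in culture mTG14. Pifo at day 11 was at 2.14, 2.68 and 1.92 CPM without irradiation, 1.34, 1.67 and 0.799 after 2 Gy, 0.811, 0.900 and 0 after 4 Gy and 0.349, 1.26 and 0.273 after 7 Gy. Pifo at day 7 was at 0.395, 0.218 and 0 after 2 Gy, 0, 0.200 and 0.453 after 4 Gy and 0.251, 0 and 0 after 7 Gy, and 0 in all 3 without irradiation, with 0 in all 3 libraries at day 5. Pifo, a low-count gene for a protein of the cilium base, lay below the controls at all 3 doses.

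Further genes of the doublets gave less clear pictures. Cfap53 at day 11 was at 3.57, 4.56 and 1.37 CPM without irradiation, 0.448, 1.67 and 1.60 after 2 Gy, 1.89, 2.47 and 1.10 after 4 Gy and 1.22, 1.08 and 1.37 after 7 Gy. Cfap53 at day 7 was at 0.521, 0.265 and 0.257 without irradiation, 0, 0.200 and 0.226 after 4 Gy and 0, 0.514 and 0 after 7 Gy, and 0 in all 3 after 2 Gy, with 0 in all 3 libraries at day 5. Cfap53 is a protein inside the doublets, and its libraries overlapped the mTG14 control after 2 and 4 Gy and came up to it after 7 Gy. Cfap126 at day 11 was at 16.4, 15.3 and 4.95 CPM without irradiation, 10.1, 6.13 and 3.99 after 2 Gy, 8.65, 5.62 and 1.93 after 4 Gy and 6.64, 8.10 and 3.28 after 7 Gy. Cfap126 at day 7 was at 3.65, 3.18 and 2.32 without irradiation, 2.77, 3.70 and 1.10 after 2 Gy, 3.21, 3.39 and 4.08 after 4 Gy and 3.26, 4.63 and 3.19 after 7 Gy, with 2.07, 0.760 and 2.85 at day 5. Cfap126, known as Flattop, was lower than its own culture's control in every irradiated library, while only the mTG14 libraries lay under all controls. Tubb4b at day 11 was at 215, 227 and 210 CPM without irradiation, 233, 247 and 261 after 2 Gy, 240, 290 and 269 after 4 Gy and 233, 296 and 265 after 7 Gy. Tubb4b at day 7 was at 276, 227 and 246 without irradiation, 266, 346 and 236 after 2 Gy, 324, 340 and 264 after 4 Gy and 262, 317 and 252 after 7 Gy, with 395, 432 and 398 at day 5. Tubb4b was highest at day 5, and all irradiated day 11 libraries lay above the controls.

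Radial spoke genes had both high and low counts. Rsph1 at day 11 was at 11.9, 12.6 and 7.15 CPM without irradiation, 3.58, 4.74 and 2.40 after 2 Gy, 4.59, 2.25 and 3.59 after 4 Gy and 3.67, 5.76 and 1.91 after 7 Gy. Rsph1 at day 7 was at 3.39, 4.24 and 4.12 without irradiation, 3.95, 5.45 and 3.29 after 2 Gy, 6.41, 6.19 and 2.72 after 4 Gy and 4.51, 6.68 and 2.66 after 7 Gy, with 2.76, 3.04 and 1.71 at day 5. Rsph1 encodes a spoke head protein, was present at all days, and lay below the day 11 controls at all 3 doses. Rsph4a at day 11 was at 1.90, 1.88 and 0.973 CPM without irradiation, 0.474, 2.79 and 0.557 after 2 Gy, 1.09, 0.450 and 0 after 4 Gy and 0.00699, 0.736 and 1.09 after 7 Gy. Rsph4a at day 7 was at 0, 0.0583 and 0.129 without irradiation, 0, 0 and 1.10 after 2 Gy, 0.0117, 0.299 and 0 after 4 Gy and 0.251, 0 and 0 after 7 Gy, with 0.172, 0 and 0 at day 5. Rsph4a, another spoke head gene, was a low-count gene whose mTG12 library after 2 Gy was the highest of all. Rsph9 at day 11 was at 7.62, 12.1 and 4.40 CPM without irradiation, 2.91, 4.74 and 3.73 after 2 Gy, 3.24, 2.47 and 3.86 after 4 Gy and 4.37, 3.42 and 3.00 after 7 Gy. Rsph9 at day 7 was at 2.61, 1.06 and 1.03 without irradiation, 1.58, 1.31 and 2.56 after 2 Gy, 1.75, 1.60 and 1.58 after 4 Gy and 1.00, 0.257 and 2.39 after 7 Gy, with 0.689, 0.760 and 0.855 at day 5. Rsph9, the third spoke head gene, overlapped the lowest control in 1 library after 2 Gy and lay below after 4 and 7 Gy. Lrrc23 at day 11 was at 18.8, 18.8 and 8.52 CPM without irradiation, 4.92, 10.0 and 1.07 after 2 Gy, 6.22, 3.37 and 1.93 after 4 Gy and 2.80, 5.94 and 1.37 after 7 Gy. Lrrc23 at day 7 was at 0.782, 1.59 and 0.257 without irradiation, 0, 1.09 and 0 after 2 Gy, 0.875, 2.39 and 0.226 after 4 Gy and 2.26, 3.08 and 0.798 after 7 Gy, with 0.345, 0 and 3.14 at day 5. Lrrc23 is a radial spoke protein, and its mTG12 library after 2 Gy was the only irradiated library above a control.

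Central pair genes rested on few counts. Spag17 at day 11 was at 3.57, 5.90 and 0.825 CPM without irradiation, 2.69, 2.23 and 0.266 after 2 Gy, 1.08, 1.80 and 0 after 4 Gy and 0.349, 1.26 and 0 after 7 Gy. Spag17 at day 7 was at 0, 0.218 and 0 after 2 Gy, 0, 0.599 and 0 after 4 Gy and 0, 0 and 0.266 after 7 Gy, and 0 in all 3 without irradiation, with 0 in all 3 libraries at day 5. Spag17 was low in the mTG14 control, which several irradiated libraries of the other cultures exceeded. Hydin at day 11 was at 0.952, 2.95 and 0.825 CPM without irradiation, 0.224, 0.836 and 0 after 2 Gy, 2.16, 0.225 and 0 after 4 Gy and 0.874, 1.08 and 0.819 after 7 Gy. Hydin at day 7 was at 0, 0.265 and 0 without irradiation and 0.251, 0 and 0 after 7 Gy, and 0 in all 3 after 2 Gy and after 4 Gy, with 0 in all 3 libraries at day 5. Hydin, also of the central pair, overlapped the controls at each dose.

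Genes of the ruler that spaces dynein arms and of the dynein regulatory complex were at 1.60 CPM or below in every library before day 11. Ccdc39 at day 11 was at 6.43, 5.09 and 3.02 CPM without irradiation, 2.01, 3.62 and 0.266 after 2 Gy, 1.62, 0.900 and 0 after 4 Gy and 1.57, 1.98 and 0.273 after 7 Gy. Ccdc39 at day 7 was at 0, 0.795 and 0 without irradiation, 0, 0 and 0.365 after 2 Gy, 0, 0.998 and 0.226 after 4 Gy and 0, 0.257 and 0 after 7 Gy, with 0 in all 3 libraries at day 5. Ccdc39 overlapped the lowest control in 1 library after 2 Gy (mTG12) and lay below all controls after 4 and 7 Gy. Ccdc40 at day 11 was at 5.48, 5.90 and 4.12 CPM without irradiation, 2.01, 3.34 and 1.86 after 2 Gy, 1.08, 3.37 and 1.38 after 4 Gy and 1.40, 1.98 and 0.819 after 7 Gy. Ccdc40 at day 7 was at 0.261, 0 and 0 without irradiation, 0.395, 0.436 and 1.10 after 2 Gy, 0, 1.60 and 0.226 after 4 Gy and 0, 0.514 and 0.266 after 7 Gy, with 0, 0 and 0.285 at day 5. Ccdc40, its partner in the ruler, lay below the controls at all 3 doses. Ccdc153 at day 11 was at 10.6, 10.2 and 3.63 CPM without irradiation, 3.46, 2.51 and 1.33 after 2 Gy, 6.49, 3.78 and 3.06 after 4 Gy and 2.10, 5.94 and 1.64 after 7 Gy. Ccdc153 at day 7 was at 0, 0.795 and 0 without irradiation, 0, 0.218 and 0 after 2 Gy, 0, 0.699 and 0.226 after 4 Gy and 1.00, 0.771 and 0.532 after 7 Gy, with 0 in all 3 libraries at day 5. Ccdc153, of the regulatory complex, lay below the controls after 2 Gy and overlapped them after 4 and 7 Gy. Drc1 at day 11 was at 3.81, 7.24 and 2.20 CPM without irradiation, 2.46, 1.67 and 0.533 after 2 Gy, 2.70, 1.80 and 0.276 after 4 Gy and 0.349, 3.60 and 0 after 7 Gy. Drc1 at day 7 was at 0, 0.530 and 0.772 without irradiation, 0.395, 0.653 and 0 after 2 Gy, 0, 0.399 and 0.679 after 4 Gy and 0, 0.771 and 0.266 after 7 Gy, with 0.345, 0.380 and 0.285 at day 5. Drc1, of the same complex, overlapped the lowest control at each dose in culture mTG11 or mTG12.

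The remaining ciliary genes were of mixed behaviour. Cfap43 at day 11 was at 9.05, 8.31 and 7.70 CPM without irradiation, 8.06, 5.29 and 5.86 after 2 Gy, 13.0, 8.55 and 6.35 after 4 Gy and 6.46, 5.04 and 6.55 after 7 Gy. Cfap43 at day 7 was at 1.04, 1.86 and 1.03 without irradiation, 4.75, 0.436 and 2.92 after 2 Gy, 3.21, 2.59 and 0.906 after 4 Gy and 2.76, 2.57 and 2.13 after 7 Gy, with 0.345, 0 and 0 at day 5. Cfap43 kept the level of the controls in part, since libraries after 2 and 4 Gy overlapped them and those after 7 Gy lay below. Cfap44 at day 11 was at 2.14, 1.61 and 1.37 CPM without irradiation, 1.19, 0.279 and 0 after 2 Gy, 0.811, 0.675 and 0 after 4 Gy and 1.05, 0.720 and 0.273 after 7 Gy. Cfap44 at day 7 was at 0, 0.218 and 0 after 2 Gy and 0, 0.771 and 0.266 after 7 Gy, and 0 in all 3 without irradiation and after 4 Gy, with 0 in all 3 libraries at day 5. Cfap44, its partner, had few counts and lay below the controls at all 3 doses. Ccdc113 at day 11 was at 3.10, 4.83 and 1.92 CPM without irradiation, 0.895, 1.95 and 0 after 2 Gy, 0.811, 0.225 and 0.828 after 4 Gy and 1.22, 1.08 and 0.546 after 7 Gy. Ccdc113 at day 7 was at 0.791, 0 and 0 after 2 Gy, 0, 1.80 and 0 after 4 Gy and 0.251, 0 and 0 after 7 Gy, and 0 in all 3 without irradiation, with 0 in all 3 libraries at day 5. Ccdc113 reached the lowest control in 1 library after 2 Gy (mTG12). Sntn at day 11 was at 2.62, 5.09 and 1.10 CPM without irradiation, 4.03, 1.39 and 0 after 2 Gy, 2.16, 1.35 and 0.828 after 4 Gy and 0.699, 0.900 and 0.273 after 7 Gy. Sntn at day 7 was at 0, 0 and 0.532 after 7 Gy, and 0 in all 3 without irradiation and after 2 Gy and after 4 Gy, with 0 in all 3 libraries at day 5. Sntn encodes a protein of the cilium tip, and its libraries overlapped the mTG14 control after 2 and 4 Gy. Mlf1 at day 11 was at 5.00, 4.02 and 0.825 CPM without irradiation, 1.57, 2.51 and 0.266 after 2 Gy, 2.16, 0.900 and 0 after 4 Gy and 0.175, 3.06 and 1.91 after 7 Gy. Mlf1 at day 7 was at 0.782, 1.33 and 0.772 without irradiation, 0, 1.52 and 0 after 2 Gy, 1.75, 1.40 and 0.906 after 4 Gy and 0.251, 2.31 and 1.33 after 7 Gy, with 0.689, 0.380 and 1.14 at day 5. Mlf1 was present at all days and overlapped the controls at each dose.

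**Figure D2:**
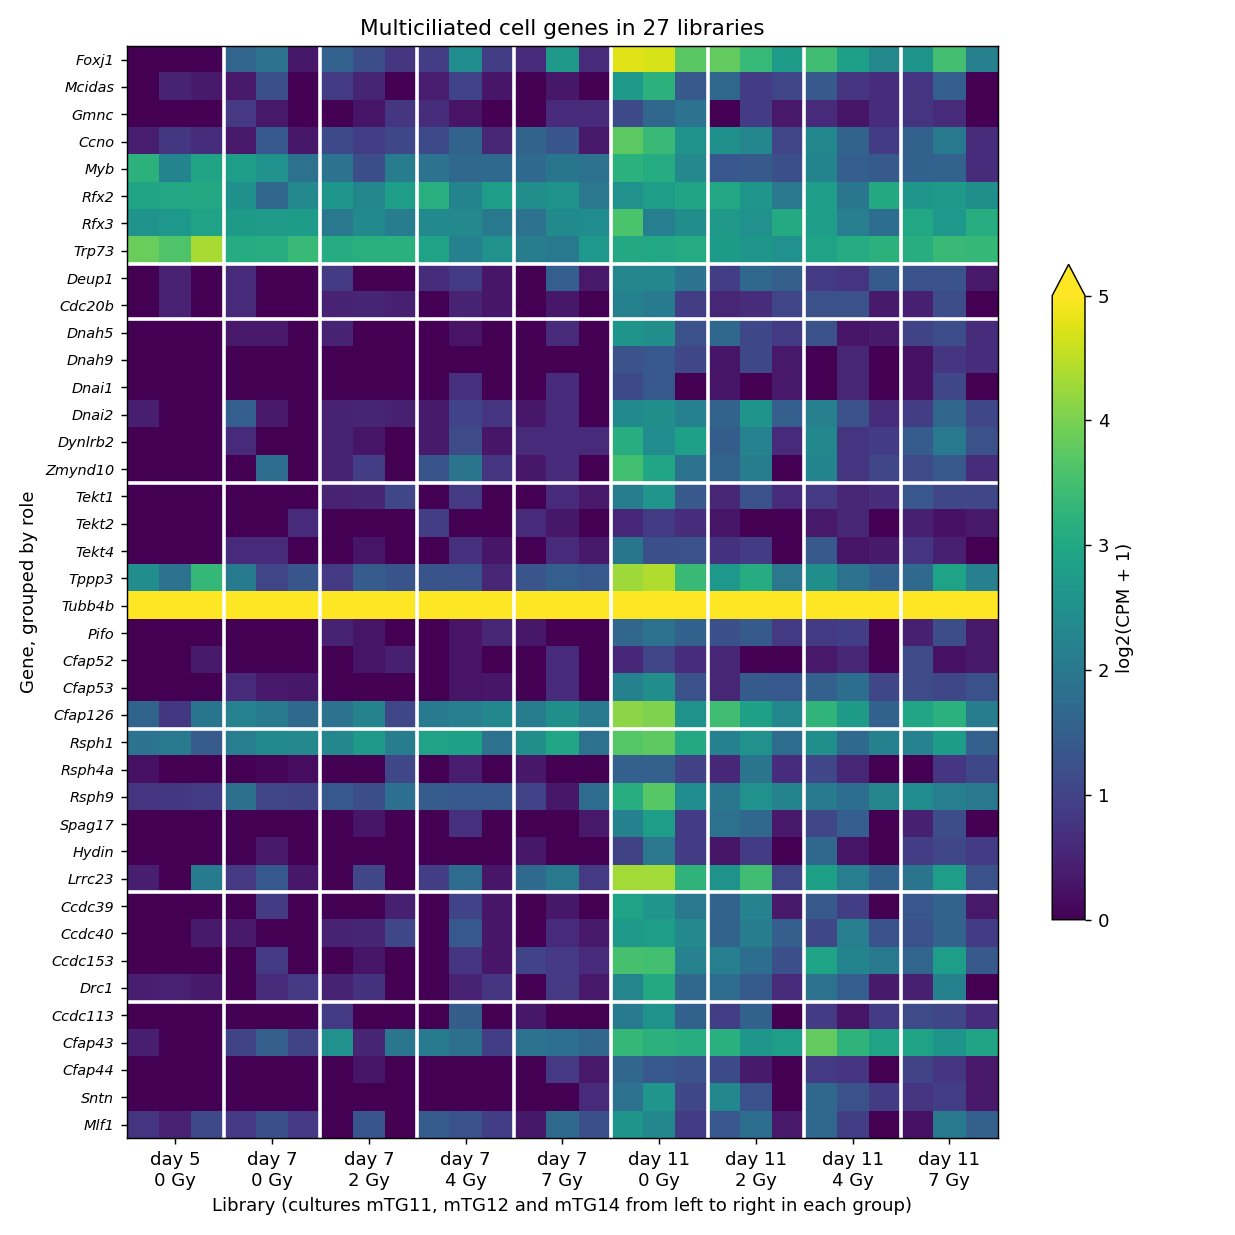
Colour map of log2(CPM + 1) for the 40 multiciliated cell genes (vertical axis, grouped by role) in the 27 libraries (horizontal axis, by day and dose, with cultures mTG11, mTG12 and mTG14 from left to right), with the colour scale ending at 5. For 32 of 38 tested genes the 3 non-irradiated day 11 libraries lie above the 3 non-irradiated day 7 libraries, as for 18.5% of all tested genes. Only 14 of the 38 had 10 counts at days 5 and 7 together. Tubb4b, Trp73, Rfx2 and Rfx3 show colour in every library from day 5 on, while Myb is brighter at day 5 than in most irradiated libraries.

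**Figure D3:**
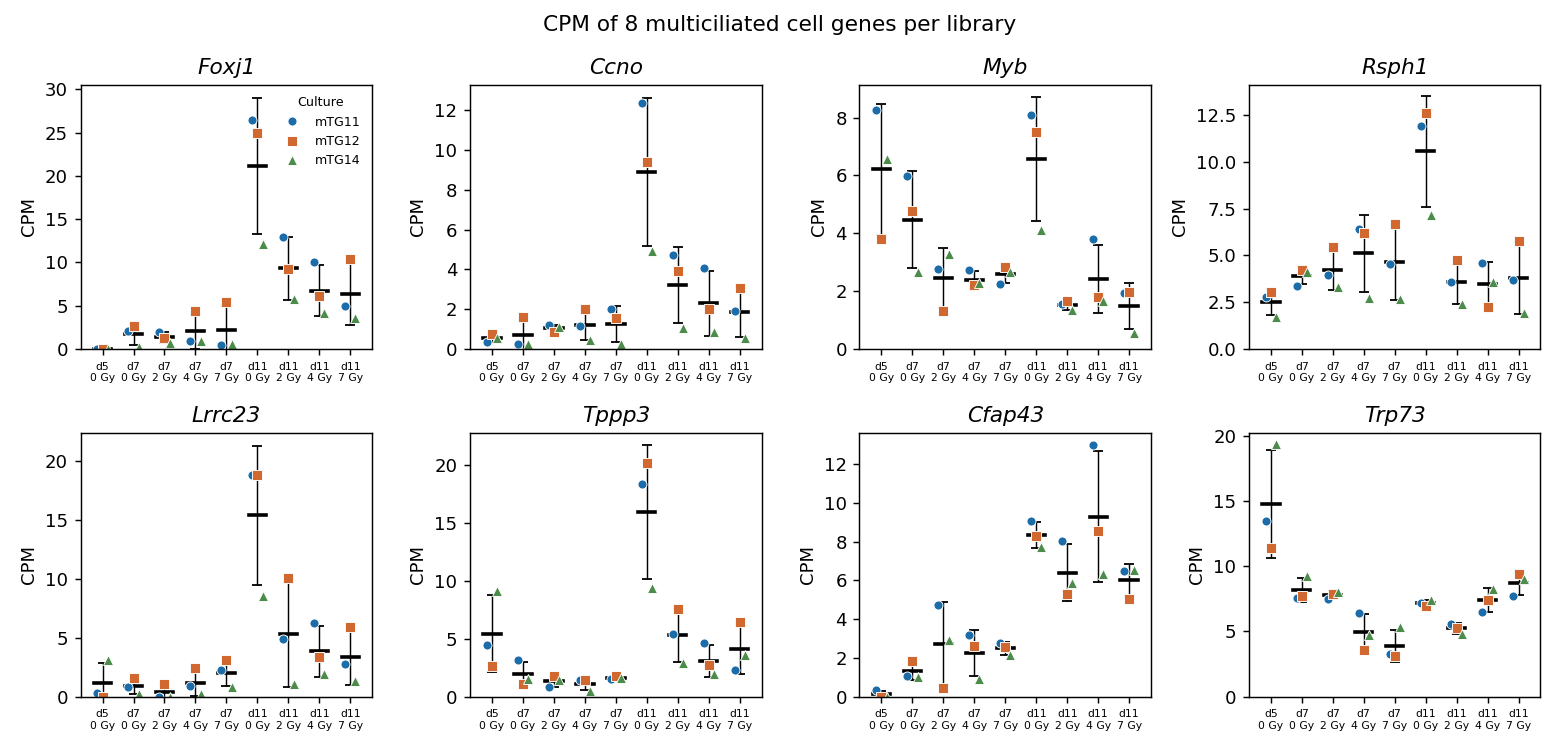
CPM (vertical axis) of 8 multiciliated cell genes, chosen after their values were seen, in each library by day and dose (horizontal axis), with points for the 3 cultures and bars for the mean and standard deviation. Foxj1 was at 12.1 to 26.4 CPM in the non-irradiated day 11 libraries and at 3.55 to 13.0 CPM in the irradiated ones, while Trp73 was at 4.79 to 9.36 CPM across day 11.

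Did the ciliary genes change as the organoids grew without irradiation? Between day 7 and day 11 the cyclin gene Ccno, the spoke genes Rsph1, Rsph9 and Lrrc23, and Tppp3, Cfap43 and Cfap126 rose, all of which had counts enough before day 11 to be tested without it. Deuterosome, dynein arm, central pair, ruler and regulatory complex genes had enough counts for a test only through the day 11 libraries, and nothing is read from their calls. Myb, Rfx2, Rfx3, Trp73, Tubb4b and Mlf1, also with counts before day 11, were not called. Foxj1 was 0 in all 3 day 5 libraries and had its first counts at day 7. The group sum without Tubb4b at day 11 was 5.35, 5.49 and 3.79 times the day 7 sum in the 3 cultures, and without Trp73, Rfx2 and Rfx3 as well it was 7.79, 7.73 and 7.18 times.

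In edgeR 29 of the 38 tested members (28 of 37 without Foxj1) were higher at day 11 than at day 7 and 0 lower, while 9.57% of all 18442 tested genes were higher. The 38 left out Tekt2 and Cfap52, which had too few counts for the test. DESeq2 called 24 higher, against 6.89% of all genes. A fit with culture as replicate block called 32 higher, which added Dnai1, Tekt4 and Mlf1, against 11.5% of all genes. Each of the 29 was higher in all 3 day 11 libraries than in any day 7 library. Such separation was found for 32 of 38 members and for 18.5% of all tested genes. The median log2 fold change was 3.62 over members, 3.09 with genes at 0 held at their bound, and 0.00 over all tested genes.

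Only 14 of the tested members had 10 counts at days 5 and 7 together, and the others passed the minimum through their day 11 counts, so the larger count is no support for a rise of the group. Of these 14, 8 were higher at day 11, or 7 of 13 without Foxj1, with a median log2 fold change of 1.87 over the 14. Foxj1 had been selected with these day 11 libraries, so its log2 fold change (3.65 for Foxj1) is given without a p. Ccno rose (log2 fold change 3.61, SE 0.53, edgeR adjusted p = 0.000480). Lrrc23 (log2 fold change 4.09, SE 0.62, edgeR adjusted p = 0.000610) and Rsph1 (log2 fold change 1.42, SE 0.27, adjusted p = 0.00271) rose among spoke genes. The other log2 fold changes in this set were 3.03 for Tppp3, 2.64 for Cfap43, 2.33 for Rsph9 and 1.99 for Cfap126. Among rarer genes, folds over a day 7 group at 0 were at least 12.9-fold for Tekt1, at least 12.6-fold for Ccdc113, at least 8.62-fold for Pifo, at least 13.3-fold for Spag17, at least 11.3-fold for Sntn, at least 6.63-fold for Cfap44 and at least 5.30-fold for Dnah9. Genes with up to 3 day 7 counts gave 20.4-fold for Deup1 (95% interval 5.29 to 174), 34.8-fold for Dynlrb2 (95% interval 9.28 to 293), 18.9-fold for Ccdc39 (95% interval 6.14 to 94.3), 59.6-fold for Ccdc40 (95% interval 10.3 to 2394) and 31.8-fold for Ccdc153 (95% interval 10.6 to 157), and also 21.4-fold for Dnah5 (95% interval 5.57 to 182), 14.6-fold for Cdc20b (95% interval 3.78 to 129), 25.6-fold for Rsph4a (95% interval 3.00 to 785) and 17.9-fold for Hydin (95% interval 2.83 to 745). The remaining log2 fold changes were 3.21 for Mcidas, 3.23 for Drc1, 3.06 for Cfap53, 3.01 for Zmynd10 and 2.52 for Dnai2. The rarer genes and these remaining ones passed the minimum only through day 11. Their folds and intervals are descriptions, and no rise is read from them.

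Some of these calls rested on single libraries. All of those were in genes that passed the minimum only through day 11, and nothing is read from them either way. Mcidas was no longer past the threshold without day 11 mTG12 (edgeR adjusted p = 0.0510, range over alternatives 7.34e-07 to 0.0510). Cdc20b was lost without day 7 mTG12, day 7 mTG14 or day 11 mTG11 (edgeR adjusted p = 0.0520, 0.0568 and 0.0601, range 0.00038 to 0.0601). Dnai2 was lost without day 7 mTG12, day 7 mTG14, day 11 mTG11 or day 11 mTG12 (0.0698, 0.0528, 0.0590 and 0.0557, range 0.000197 to 0.0698). Hydin was lost without day 7 mTG11 or mTG14 (0.0902 and 0.0904, range 0.00845 to 0.0904). Zmynd10 was lost without day 7 mTG11, day 7 mTG14, day 11 mTG11 or day 11 mTG12 (0.0841, 0.0899, 0.130 and 0.0729) and by DESeq2 (0.445, range 7.20e-08 to 0.445). DESeq2 gave no adjusted p to Dnah9, Rsph4a, Cfap44 and Hydin.

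The steps from day 5 framed this rise. From day 5 to day 7 edgeR called 2 of 38 members higher, Foxj1 and Cfap43, and 2 lower, Trp73 and Tubb4b, against 12.0% of all genes higher and 9.62% lower. Foxj1 was at least 4.98-fold higher (edgeR adjusted p = 0.0343) in 3 of 3 libraries. The other fold was 11.8-fold for Cfap43 (95% interval 1.81 to 497), also in 3 of 3 libraries and with edgeR adjusted p = 0.0106. Trp73 was lower in 3 of 3 libraries (log2 fold change −0.72, SE 0.22, edgeR adjusted p = 0.0350), as was Tubb4b (log2 fold change −0.56, SE 0.08, adjusted p = 0.000571). The Foxj1 call was lost without day 5 mTG11, mTG12 or mTG14 or day 7 mTG11 or mTG12 (edgeR adjusted p = 0.0737, 0.0712, 0.0849, 0.0814 and 0.0884, range over alternatives 1.94e-05 to 0.0884). The Trp73 call was lost without day 5 mTG11 or mTG14 or day 7 mTG11 or mTG12 (0.0571, 0.189, 0.104 and 0.0910), by DESeq2 (0.0980), which called Tppp3 lower instead, and with only the groups compared (0.0524, range 0.0121 to 0.189). The count of 4 became 2 without any of day 5 mTG11, day 5 mTG14, day 7 mTG11 or day 7 mTG12.

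Against day 5, day 11 gave 32 of 38 members higher (31 of 37 without Foxj1) and 2 lower, with 21.3% and 20.1% of all genes. Gmnc, Tekt4 and Mlf1 were added to the 29 genes above. The block fit called 33 higher, against 22.65% of all genes. Folds over day 5 were at least 5.99-fold for Gmnc and at least 5.73-fold for Tekt4, and the log2 fold change was 2.20 for Mlf1, with Mlf1 overlapping in culture mTG14. Mlf1 was lost without day 5 mTG12, day 11 mTG11 or day 11 mTG12 (edgeR adjusted p = 0.0608, 0.0833 and 0.0505, range 0.00153 to 0.0833). Trp73 (log2 fold change −0.91, SE 0.22, edgeR adjusted p = 0.00609) and Tubb4b (log2 fold change −0.77, SE 0.08, adjusted p = 1.34e-05) were lower in 3 of 3 libraries. Of the 14 members with 10 counts at days 5 and 7, 9 were higher and 2 lower. The median log2 fold change was 2.22 over these 14, and 5.33 over all 38, or 3.33 with bounds.

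Was the program affected within days of irradiation? At day 7, members showed no common direction at any dose, and Foxj1 libraries of all doses overlapped. Trp73 was the only member to pass the test at day 7, where it was lower after 7 Gy. At day 7, 28 of 40 members could be tested, and Dnah5, Dnah9, Dnai1, Tekt2, Rsph4a, Pifo, Cfap44, Cfap52, Cfap53, Spag17, Hydin and Sntn had too few counts.

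In edgeR 0 of 28 members were called after 2 Gy (3 at an unadjusted p under 0.05, 0 by DESeq2), against 0.124% of all 19346 genes. After 4 Gy it called 0 (3 at an unadjusted p under 0.05, 0 by DESeq2), against 1.63% of all genes. After 7 Gy it called 1 lower, Trp73 (log2 fold change −1.08, SE 0.27, adjusted p = 0.0263), against 3.75% of all genes lower, and DESeq2 called 0 (adjusted p = 0.0624 for Trp73). With only the groups compared the adjusted p was 0.0515, and the count also went to 0 without non-irradiated mTG12 or mTG14 or 7 Gy mTG11 or mTG12 (edgeR adjusted p = 0.0545, 0.110, 0.109 and 0.116, range over alternatives 0.00565 to 0.116). The medians of the log2 fold changes of members were −0.17, 0.32 and 0.15 after 2, 4 and 7 Gy, and −0.18, 0.31 and 0.14 with bounds.

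Did the program at day 11 show after 2 and 4 Gy what Foxj1 showed after 7 Gy? Most members had log2 fold changes below 0 at both doses, while none passed the threshold of the planned edgeR fit. Tppp3, Rsph1, Ccno, Myb, Tekt1 and Ccdc40 lay below every control library at both doses. Tubb4b lay above every control, Rfx2 and Rfx3 had log2 fold changes near 0 after 2 Gy, and Rfx2, Cfap43 and Trp73 after 4 Gy. Some members passed when culture was a replicate block and some with a lower count minimum, as given below. Foxj1 was selected with the control libraries used here, so it has no p, and counts are also given without it.

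After 2 Gy edgeR called 0 of 40 members (22 at an unadjusted p under 0.05, 0 by DESeq2), with 0% of all 19901 genes lower. With culture as replicate block, 6 were lower (5 of 39 without Foxj1), against 0.0804% of all genes. With a minimum of 1 count and no block, 12 were lower (11 of 39 without Foxj1), against 0.373% of all genes. The log2 fold changes of the 5 in the block fit were −1.50 for Ccno, −2.12 for Myb, −1.59 for Rsph1, −1.62 for Tppp3 and −1.62 for Lrrc23, each lower than its own culture's control in 3 of 3 cultures. In all, 39 of 40 log2 fold changes were below 0, Tubb4b being the exception, with a median of −1.44 against −0.01 over all genes. For 16 of 40 members every 2 Gy library lay below every control, as for 4.06% of all genes. Without the block, Tppp3 gave log2 fold change −1.62, SE 0.40, edgeR adjusted p = 0.828, and the log2 fold change was −1.19 for Foxj1.

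After 4 Gy edgeR called 0 of 40 (22 at an unadjusted p under 0.05), with 0% of all genes lower. DESeq2 called 2 lower, Foxj1 and Tppp3 (1 of 39 without Foxj1), against 0.05025% of all genes. With culture as replicate block, 12 were lower (11 of 39 without Foxj1), against 0.332% of all genes. With a minimum of 1 count and no block, 17 were lower (16 of 39 without Foxj1), against 0.503% of all genes. The log2 fold changes of the 11 in the block fit were −2.42 for Mcidas, −1.99 for Ccno, −1.47 for Myb, −2.44 for Tekt1 and −1.63 for Rsph1, and −2.57 for Dnah5, −2.56 for Ccdc39, −1.42 for Ccdc40, −2.40 for Tppp3, −1.19 for Cfap126 and −2.05 for Lrrc23. In all, 37 of 40 log2 fold changes were below 0, Trp73, Tubb4b and Cfap43 being above, with a median of −1.64 against −0.01 over all genes. For 22 of 40 members every 4 Gy library lay below every control, as for 4.52% of all genes. Without the block Tppp3 gave log2 fold change −2.38, SE 0.43, edgeR adjusted p = 0.176 and Rsph1 log2 fold change −1.63, SE 0.37, adjusted p = 0.231, each lower in 3 of 3 libraries, and the log2 fold change was −1.67 for Foxj1. Over the 39 members with at least 10 counts in the irradiated day 11 groups (all but Tekt2), the medians were −1.41 after 2 Gy and −1.64 after 4 Gy.

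Values after 7 Gy at day 11 are a description, since Foxj1 was selected on this contrast and the list followed from it. Foxj1 was at 0.309 of the control level in pooled counts, given without an interval because it was selected here. Of the 40 members, 37 had a log2 fold change below 0, the median was −1.57 against 0.01 over all genes, and it was −1.59 over the 39 members of the irradiated groups. Log2 fold changes were −2.21 for Ccno, −2.08 for Myb, −2.15 for Lrrc23, −1.98 for Tppp3, −2.49 for Mcidas, −2.48 for Zmynd10, −1.46 for Rsph1, −1.02 for Cfap126 and −0.52 for Cfap43. They were −0.20 for Rfx2, 0.02 for Rfx3, 0.23 for Trp73 and 0.24 for Tubb4b for broadly expressed genes. The edgeR fit counted 4 lower members against 0.462% of all genes, the block fit 17 against 2.91% and DESeq2 8, and nothing was read from these counts. The count of 4 became 0 without non-irradiated mTG11 or mTG12 or 7 Gy mTG11 or mTG14, and 2 without non-irradiated mTG14. For 25 of 40 members every 7 Gy library lay below every control, as for 8.39% of all genes.

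The 3 doses of day 11 share their control libraries, which also entered the day 11 against day 7 and day 5 comparisons and helped to choose Foxj1. Low controls or high controls would move all of these together, so the doses are not separate evidence. Culture mTG14 was the lowest of its group for 32, 25, 24 and 27 of 40 members after 0, 2, 4 and 7 Gy at day 11. Culture mTG12 was the highest after 7 Gy for 28 members at day 11.

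Did members still rise from day 7 to day 11 in irradiated cultures? Single genes did, among them Ccdc153 and Cfap43 after 2 and 4 Gy, Foxj1, Tppp3 and Lrrc23 after 2 Gy, and Trp73 and Rsph9 after 7 Gy. How many were called after 4 and 7 Gy depended on the fit, with 5 and 3 of 40 without the block and more with it, and no rise of the group is read from them. Only 28 members had 10 counts over the day 7 libraries, and Cfap53, Sntn and Dnah5 were not among them, since they had enough counts for a test only through day 11. The group sum at day 11 was 2.63, 2.88 and 1.51 times that of day 7 after 2 Gy, 2.62, 1.36 and 1.78 times after 4 Gy and 2.30, 2.06 and 1.78 times after 7 Gy, below the ratio without irradiation in each culture.

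After 2 Gy 11 of 40 members were higher, and 8 of the 28, against 7.52% of all 21928 genes. With the block 16 were higher, and 12 of the 28, against 9.84%. Foxj1 (log2 fold change 2.81, SE 0.74, edgeR adjusted p = 0.00937), Tppp3 (log2 fold change 1.88, SE 0.53, adjusted p = 0.0143) and Cfap43 (log2 fold change 1.44, SE 0.46, adjusted p = 0.0306) were higher in all 3 libraries than at day 7. Lrrc23 (log2 fold change 3.34, SE 0.96, edgeR adjusted p = 0.0172) overlapped in culture mTG14, as did Sntn and Ccdc39. The other genes gave at least 3.89-fold for Cfap53 and at least 6.40-fold for Sntn, and 24.6-fold for Ccdc153 (95% interval 4.01 to 988), 19.2-fold for Ccdc39 (95% interval 3.12 to 791), 14.2-fold for Dnah5 (95% interval 2.22 to 593) and 9.60-fold for Dynlrb2 (95% interval 2.37 to 84.0), with a log2 fold change of 2.76 for Dnai2. The median log2 fold change was 1.68 over the 28, and 1.89 over all 40, or 1.85 with bounds. The count fell to 7, 4 and 6 without day 7 mTG11, mTG12 and mTG14, and to 6 without day 11 mTG11 or mTG12. Among members past the count check, Ccdc153 was the call that no omission ended.

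The other calls after 2 Gy, Cfap53 apart, were each lost in some fit, with the range of the adjusted p over alternatives given here. Foxj1 was lost without day 7 mTG12 (0.0534, range 5.32e-13 to 0.0534) and Tppp3 without day 11 mTG12 (0.0621, range 7.31e-05 to 0.0621). Dnah5 was lost without day 7 mTG12 or mTG14 or day 11 mTG11 (0.188, 0.0972 and 0.145) and by DESeq2 (0.0554, range 0.00924 to 0.188). Dnai2 was lost without day 7 mTG11, mTG12 or mTG14 or day 11 mTG12 (0.0524, 0.0900, 0.0566 and 0.108, range 0.000561 to 0.108). Ccdc39 was lost without day 7 mTG11 or mTG12 or day 11 mTG11 or mTG12 (0.109, 0.205, 0.0830 and 0.165) and with only the groups compared (0.0540, range 0.00049 to 0.205). Cfap43 was lost without day 7 mTG12 or day 11 mTG11 (0.240 and 0.112) and with only the groups compared (0.0990, range 0.000736 to 0.240). Lrrc23 was lost without day 7 mTG11 or mTG14 or day 11 mTG12 (0.0546, 0.0575 and 0.0989, range 1.52e-09 to 0.0989). Sntn was lost without day 7 mTG11, mTG12 or mTG14 or day 11 mTG11 (0.0565, 0.112, 0.0583 and 0.152) and with only the groups compared (0.0769, range 8.67e-05 to 0.152). Dynlrb2 was lost without day 7 mTG11, mTG12 or mTG14 or day 11 mTG11 or mTG12 (0.0544, 0.138, 0.106, 0.0618 and 0.165) and with only the groups compared (0.0537, range 0.0014 to 0.165).

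After 4 Gy 5 of 40 members were higher, and 3 of the 28, against 7.71% of all genes. With the block 9 were higher, and 6 of the 28, against 9.98%. Cfap43 (log2 fold change 2.12, SE 0.42, edgeR adjusted p = 0.000858), Ccdc153 (log2 fold change 3.48, SE 0.75, adjusted p = 0.00208) and Trp73 (log2 fold change 0.66, SE 0.22, adjusted p = 0.0385) were higher in all 3 libraries than at day 7. The folds of the rarer genes were 12.0-fold for Cfap53 (95% interval 2.95 to 105), and at least 6.19-fold for Sntn. The median log2 fold change was 0.933 over the 28, and 1.22 over all 40, or 1.14 with bounds. Trp73 was lost without day 7 mTG12 or mTG14 or day 11 mTG12 or mTG14 (edgeR adjusted p = 0.241, 0.0752, 0.0772 and 0.103, range 0.0142 to 0.241). The Trp73 call was also lost without TMM factors (0.0529), with a minimum of 1 count (0.101), by DESeq2 (0.113) and with only the groups compared (0.112). Sntn was lost without day 7 mTG11, mTG12 or mTG14 or day 11 mTG11 (0.0642, 0.0848, 0.0683 and 0.0800, range 0.000114 to 0.0848). The count was 3 without day 7 mTG14.

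After 7 Gy 3 of 40 members were higher, and 2 of the 28, against 6.15% of all genes, each in 3 of 3 libraries. Trp73 (log2 fold change 1.15, SE 0.22, edgeR adjusted p = 0.000987) and Rsph9 (log2 fold change 1.57, SE 0.48, adjusted p = 0.0345) were joined by a fold of 7.01-fold for Cfap53 (95% interval 1.68 to 62.3). With the block, 8 members apart from Foxj1 were higher, against 8.91%, namely Trp73, Rsph9, Ccdc39, Ccdc40, Ccdc153, Tppp3, Cfap43 and Cfap53. Foxj1 at 7 Gy is left as described by its values, since those day 11 libraries chose it. The median log2 fold change was 1.29 over the 28, and 1.60 over all 40, or 1.58 with bounds. Rsph9 was lost without day 7 mTG11 or mTG12 or day 11 mTG11 (edgeR adjusted p = 0.108, 0.176 and 0.128, range 0.00477 to 0.176), and with only the groups compared (0.0895). Cfap53 was lost without day 7 mTG11 or mTG14 or day 11 mTG11, mTG12 or mTG14 (0.159, 0.147, 0.0997, 0.0624 and 0.0891), without TMM factors (0.0501), by DESeq2 (0.110) and with only the groups compared (0.0799, range 0.0168 to 0.159). The count was 1 without day 7 mTG11.

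Whether the response to a dose differed between day 11 and day 7 was tested as an interaction. Rsph1 was the only member called in any of these fits at the count minimum of 10, after 4 Gy with culture as replicate block. For 2 Gy edgeR called 0 of 40 members (4 at an unadjusted p under 0.05, 0 by DESeq2), with 0% of all genes lower and a median of −1.22. For 4 Gy it called 0 (10 at an unadjusted p under 0.05, 0 by DESeq2), with 0.0547% of all genes lower and a median of −1.66, while the block fit called 1 against 0.233%. Rsph1 was at a log2 difference of −1.93 (SE 0.54), or −1.89 with the block. The 7 Gy interaction was not tested, since it holds the contrast on which Foxj1 was selected.

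Other motile cilium genes, a separate list of 69 genes in use, were also looked at over time. From day 7 to day 11, 31 of 60 tested were higher and 3 lower, against 9.57% of all genes higher and 11.7% lower, with a median log2 fold change of 2.67 (2.22 with bounds). Only 28 of them had 10 counts at days 5 and 7, of which 7 were higher and 3 lower with a median of 0.31, so the larger count is no support for a rise of the list. The centriole genes Plk4, Sass6 and Stil, which dividing cells also need, were the 3 lower ones (−1.24 for Plk4, −0.88 for Sass6 and −1.58 for Stil). Higher ones included Cfap298, Dnal1 and Cfap45 (0.44 for Cfap298, 0.87 for Dnal1 and 1.79 for Cfap45). From day 5 to day 7, 2 were higher, Spef1 and Capsl (0.44 for Spef1 and 1.89 for Capsl), and 3 lower, Plk4, Dnaaf2 and Mns1 (−0.91 for Plk4, −0.64 for Dnaaf2 and −1.13 for Mns1), against 12.0% and 9.62% of all genes. From day 5 to day 11, 41 were higher and 5 lower (median 3.59, 2.28 with bounds), against 21.3% of all genes higher and 20.1% lower. Of the 28, 13 were higher and 5 lower, with a median of 0.661. Cfap298, Spef1 and Rsph3a were among the higher (0.42 for Cfap298, 0.65 for Spef1 and 0.67 for Rsph3a). Plk4, Sass6 and Dnaaf2 were among the lower (−2.15 for Plk4, −1.48 for Sass6 and −1.03 for Dnaaf2).

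At day 11 edgeR called 0 of 68 of these genes after 2 Gy and after 4 Gy (21 at an unadjusted p under 0.05 at each dose), with medians of −1.02 and −1.09. After 7 Gy the median was −1.03. Their sums at day 11 were 372, 358 and 269 CPM without irradiation, 260.0, 234 and 198 after 2 Gy, 280.4, 224 and 221 after 4 Gy and 248, 279 and 219 after 7 Gy, each below its own culture's control. At day 7, Spef1 was the only called gene of 45 tested (−0.51 for Spef1 after 7 Gy, where 3.75% of all genes were lower). From day 7 to day 11, 5 of 69 were higher and 5 lower after 2 Gy, 7 and 3 after 4 Gy, and 4 and 0 after 7 Gy, against 7.52%, 7.71% and 6.15% of all genes higher and 9.68%, 9.43% and 6.17% lower. Among these were 1.96 for Tmem212, −1.48 for Plk4, −1.65 for Stil, −0.88 for Sass6, −2.16 for Mns1 and −0.70 for Dnaaf2 after 2 Gy, 3.17 for Drc3, 2.07 for Tmem212, 1.91 for Cfap206, −1.16 for Plk4, −0.76 for Stil and −1.23 for Ropn1l after 4 Gy and 3.94 for Meig1, 1.95 for Drc3 and 0.63 for Spef1 after 7 Gy. No gene of the list was called in an interaction.

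Genes for intraflagellar transport and primary cilia, 52 genes that most cells express, had medians near 0 at each dose of day 11. Their group means were 799.5, 781, 777 and 809 CPM after 0, 2, 4 and 7 Gy at day 11, and 720.4 CPM at day 7 without irradiation. At day 11 edgeR called 0 of 52 after 2 Gy and after 4 Gy (1 and 2 at an unadjusted p under 0.05), and the medians were −0.07, −0.07 and −0.08 after 2, 4 and 7 Gy. Over time, 7 were higher and 2 lower from day 7 to day 11 (median 0.19), 9 and 2 from day 5 to day 7, and 21 and 3 from day 5 to day 11 (median 0.48), against 9.57%, 12.0% and 21.3% of all genes higher and 11.7%, 9.62% and 20.1% lower. The first of these included 1.03 for Ift57, 0.88 for Cluap1, 0.90 for Dync2li1, 0.59 for Ift81, −0.70 for Cep164 and −0.86 for B9d1, the next 0.81 for Ift81, 0.55 for Ift46, 0.35 for Ift52, −0.53 for Ift27 and −0.58 for Wdr35, and the last 0.78 for Ift46, 0.65 for Kif3a, 0.58 for Ift52, 0.51 for Kifap3 and −0.70 for Ift27.

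In irradiated cultures, 3 of 52 of these genes were higher at day 7 after 7 Gy, against 3.20% of all genes (1.08 for Wdr35, 1.05 for Tctn1 and 0.81 for Ift27) and 0 were called after 2 or 4 Gy by edgeR (6 and 8 at an unadjusted p under 0.05). From day 7 to day 11, 7.52%, 7.71% and 6.15% of all genes were higher after 2, 4 and 7 Gy, and 9.68%, 9.43% and 6.17% lower. Of the 52, 5 were higher and 1 lower after 2 Gy, 6 and 2 after 4 Gy, and 7 and 1 after 7 Gy. Among these were 1.00 for Ift57, 0.99 for Dync2li1, 0.87 for Ift22, 0.65 for Cluap1, 0.53 for Kif3a and −0.87 for B9d1 after 2 Gy, 1.10 for Ift81, 0.94 for Ift57, 0.82 for Cluap1, 0.46 for Arl3, −0.69 for Cep164 and −0.83 for B9d1 after 4 Gy and 1.34 for Ift57, 1.15 for Dync2h1, 1.10 for Dync2li1, 1.04 for Ttbk2, 0.72 for Ift81 and −0.72 for Ift27 after 7 Gy.

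Summed levels of markers of other cells at day 11 are given here, and how they relate to those of the ciliary genes was not tested. Airway secretory cell markers, whose cells often lie beside ciliated cells, summed to 3779, 3401 and 2603 CPM without irradiation at day 11, 3559.7, 1925 and 1757 after 2 Gy, 3097, 1188 and 1953 after 4 Gy and 2524, 2497 and 1485 after 7 Gy. Every irradiated culture was below its own control, 0 of 13 were called in edgeR after 2 or 4 Gy (0 and 1 at an unadjusted p under 0.05), and the medians were −0.23 and −0.85. Reg3g was the most abundant at 2063 ± 569 CPM without irradiation, 1466 ± 686 after 2 Gy and 1147 ± 636 after 4 Gy, and Scgb1a1, which defines club cells, had 256 counts in all libraries. Fibroblast markers summed to 5.71, 38.1 and 27.5 CPM without irradiation, 23.7, 105 and 99.6 after 2 Gy, 13.3, 115 and 64.0 after 4 Gy and 16.4, 76.8 and 46.0 after 7 Gy. Every irradiated culture was above its own control, 0 of 7 were called in edgeR after 2 or 4 Gy (1 and 1 at an unadjusted p under 0.05), and the medians were 1.66 and 1.66. Col1a2, the most abundant, was at 5.82 ± 5.28, 18.0 ± 13.1 and 19.4 ± 17.6 CPM after 0, 2 and 4 Gy, and Col1a1 at 5.60 ± 4.65, 18.0 ± 14.1 and 16.0 ± 15.7.

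Cell markers also changed between day 7 and day 11 without irradiation, where 9.57% of all genes were higher and 11.7% lower. Basal cell markers went from 9854, 11441 and 9990.5 to 4274, 6013 and 4636 CPM in sum, with 0 of 7 higher and 5 lower, and Krt5 went from 4625 ± 193 to 2495 ± 401 CPM. Suprabasal squamous markers went from 12110, 9109.5 and 12623 to 5144, 5169 and 6489 CPM, with 5 of 7 lower, Krt13 from 4883 ± 1077 to 2405 ± 523 and Krt4 from 1738 ± 604 to 1156 ± 131. Thyroid follicular markers went from 52.6, 44.5 and 53.6 to 289, 203 and 278 CPM, with 3 of 7 higher, where Duoxa2 was at 136 ± 26.4 and Tg, the hormone precursor, at 2.32 ± 3.34 CPM at day 11. Airway secretory markers had 2 of 13 higher and 4 lower, and fibroblast markers 2 of 7 lower. How these changes relate to those of the ciliary genes was not tested.

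The remaining lists were small. Calcb, the most abundant C cell and neuroendocrine marker, was at 26.4 ± 10.6 CPM at day 7 and 3.12 ± 1.42 at day 11 without irradiation, with 1 of 2 tested markers lower, and Calca, the calcitonin gene, had 26 counts in all. Among tuft cell markers 0 of 3 were called by edgeR (1 at an unadjusted p under 0.05), with Dclk1 at 1.57 ± 1.23 and Pou2f3 at 2.39 ± 0.747 CPM at day 11. Of ionocyte markers 1 was tested and 0 called (0 at an unadjusted p under 0.05), with Ascl3 at 0.767 ± 0.430 CPM and only 2 counts of Foxi1 in all. Of immune markers 1 of 2 was higher, with Cd68 at 44.8 ± 12.5 CPM at day 11, 12 counts of Ptprc in all and 0 of Cd3e. No endothelial marker could be tested over days without irradiation, 0 of 2 were called by edgeR from day 7 to day 11 at any dose (0, 0 and 1 at an unadjusted p under 0.05 after 2, 4 and 7 Gy), and Pecam1 had 41 counts in all and Emcn 0. At day 11 edgeR called 0 markers of the basal, squamous, thyroid, C cell, tuft, ionocyte, immune and endothelial lists after 2 or 4 Gy. After 7 Gy 1 of 2 C cell markers was higher, against 1.06% of all genes, and Calcb was at 11.8 ± 3.07 CPM there.

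Markers also differed in the other comparisons. From day 5 to day 7, where 12.0% of all genes were higher and 9.62% lower, the lists gave 3 higher and 0 lower of 13 airway secretory markers, 2 and 0 of 7 basal, 3 and 1 of 7 squamous, 2 and 0 of 7 thyroid, 1 and 0 of 2 C cell, 0 and 1 of 3 tuft and 1 and 0 of 2 immune markers. At day 7, 1 of 7 basal markers was lower after 4 Gy and 3 after 7 Gy, 2 of 7 squamous markers were higher and 2 lower after 7 Gy, and 1 of 4 C cell markers was higher after 4 Gy and after 7 Gy. Of all genes at day 7, 0.972% were higher and 0.656% lower after 4 Gy, and 3.20% and 3.75% after 7 Gy. From day 7 to day 11 the squamous markers had 5, 4 and 4 of 7 lower after 2, 4 and 7 Gy and 0, 0 and 1 higher, the basal markers 3 of 7 lower at each dose and 0, 1 and 2 higher, and the thyroid markers 4, 3 and 2 of 9 higher. Of all genes, 7.52%, 7.71% and 6.15% were higher and 9.68%, 9.43% and 6.17% lower. No marker was called by edgeR in an interaction.

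Ccno, Mcidas and Cdc20b are neighbours on chromosome 13 of build GRCm39, all on the + strand, at 113124315 to 113127312, 113130328 to 113136928 and 113171632 to 113227729. Gpx8 lies within Cdc20b on the − strand. Ccno was higher at day 11 than at day 7 without irradiation. Mcidas and Cdc20b had enough counts for that test only through the day 11 libraries, and nothing is read from their calls. After 4 Gy at day 11 Ccno and Mcidas lay below all controls while Cdc20b overlapped them.

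Promoters were searched for binding motifs of the regulators, as a description. The core GTTGCC of the X-box, on which RFX factors bind, was found on either strand in 21 of 35 members with a promoter (60%), against 14.1% of 27025 genes. It was in 41.9% of other motile cilium genes and in 46.7% of intraflagellar transport and primary cilium genes. A full X-box was searched only as GTTNCC and then GGNAAC (N for any base), with a short gap of at least 1 base. In that form it was in 1 member (Pifo, 2.86%), in 4.84% of other motile cilium genes, in 11.1% of transport and primary cilium genes and in 0.903% of all genes. Looser forms were not searched, and the Dynlrb2 core printed below is followed by tagcaac, which this form leaves out. The forkhead core GTAAACA was in 4 members (Mlf1, Myb, Sntn and Cfap43, 11.4%), in 4.84% and 0% of the other lists and in 4.05% of all genes. Rsph1, Cfap53, Foxj1, Rsph4a and Tppp3 had no promoter in the table. The X-box of Pifo and, as examples of the core in genes of several roles, 1 site in each of Lrrc23, Dynlrb2, Ccdc153, Ccno and Mcidas are printed here (build GRCm38.p6, motif in capitals), so that they can be found in the genome. Lrrc23 has another site that is not shown.

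Pifo X-box, chr3:106001498-106001547, − strand: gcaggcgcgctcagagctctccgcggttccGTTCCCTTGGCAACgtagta

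Lrrc23 core, chr6:124779731-124779796, − strand: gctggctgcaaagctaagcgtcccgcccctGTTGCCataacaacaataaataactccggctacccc

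Dynlrb2 core, chr8:116504934-116504999, + strand: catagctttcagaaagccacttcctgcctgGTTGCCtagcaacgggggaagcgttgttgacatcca

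Ccdc153 core, chr9:44240495-44240560, + strand: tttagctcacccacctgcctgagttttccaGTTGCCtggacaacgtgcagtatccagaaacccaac

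Ccno core, chr13:112987553-112987618, + strand: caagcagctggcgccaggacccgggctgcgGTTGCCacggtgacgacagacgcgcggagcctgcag

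Mcidas core, chr13:112993643-112993708, + strand: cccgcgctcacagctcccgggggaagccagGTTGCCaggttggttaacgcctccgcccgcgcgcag

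Pifo holds the X-box on the − strand, and Lrrc23 is also read from the − strand, while Dynlrb2, Ccdc153, Ccno and Mcidas are on the + strand.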

How the data were processed

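The values were estimated counts per gene and library, made from the reads by the authors before they were deposited; the authors name STAR, edgeR and build GRCm39 without versions, and the sources used here do not give the counting tool or annotation. Of the nonzero values, 56.3% were whole numbers (tolerance 1e-9). Counts were rounded for the fits and used as deposited for CPM.

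Fits used edgeR 4.0.16 (quasi-likelihood F test, TMM factors) in R 4.3.3, on genes with at least 10 counts over the libraries of a fit. The fits were the 9 non-irradiated libraries, the 12 of day 7, the 12 of day 11 and the 24 of days 7 and 11. A gene was called at a Benjamini-Hochberg adjusted p under 0.05 over all tested genes. DESeq2 1.42.0 was the second method, limma 3.58.1 was loaded with edgeR, and summaries used Python 3.11.15, pandas 2.3.3 and scipy 1.17.1. The fits were tested on simulated data with known changes and with none before use.

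The members and the other lists were chosen with earlier results of these data known. All 40 members are named with their counts. Values in every library are given for members with a mean of at least 5 CPM in a group, for Foxj1, and for members called outside the 7 Gy contrast of day 11. From the other cilium lists up to 6 called genes per comparison are named, by mean CPM. From each marker list the most abundant and the first gene are named. The other lists were other motile cilium genes, intraflagellar transport and primary cilium genes, and markers of airway secretory, basal, suprabasal squamous, thyroid follicular, C and neuroendocrine, tuft, ionocyte, fibroblast, immune and endothelial cells.

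Cultures mTG11, mTG12 and mTG14 were read from column names. The sample labels number mice and could not be matched to them. After group means were removed over 13155 genes, libraries of the same culture correlated at 0.216 over days, 0.282 at day 7 and 0.351 at day 11 on average, and those of different cultures at −0.108, −0.141 and −0.175. No pair of libraries of a group was a duplicate by its counts (smallest chi-square per degree of freedom 3.39).

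A group at 0 was set to a floor of 3 counts for folds, and intervals are exact binomial intervals of pooled counts, which hold counting error only. Alternatives were no TMM factors, DESeq2, a minimum of 1 count, filterByExpr, culture as replicate block, only the groups compared, each library left out, and CPM on TMM-scaled totals. No p is given for 7 Gy against 0 Gy at day 11, for Foxj1 from day 7 to day 11 at 7 Gy or for sums, and no set test was made. Motifs were searched on both strands of promoter windows, and coordinates of genes are from GENCODE M39.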

Additional observations from a re-analysis of the deposited data

How the results depend on the processing

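Counts of called members moved by more than a factor of 1.5 under some alternative in every comparison but 2 and 4 Gy at day 7, where they stayed at 0. Members called at day 11 against day 7 at 0 Gy were 15 with filterByExpr in place of 29, and at day 11 against day 5 at 0 Gy 17. The 50 single gene calls of the main fits that filterByExpr tested all held. These lower counts come from members that it left untested. For 7 Gy against 0 Gy at day 7 the count went to 0 with DESeq2 and to 0 with only the groups compared, where Trp73 was the 1 member.

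Culture as replicate block, which pairs libraries of the same culture, raised the counts at day 11. For 2 Gy against 0 Gy at day 11 it gave 6, against 0.0804% of all genes lower, and a filter at 1 count gave 12, against 0.373%. For 4 Gy against 0 Gy at day 11 it gave 12, a filter at 1 count 17 and DESeq2 2, against 0.332%, 0.503% and 0.05025% of all genes lower. The counts for 2 and 4 Gy include Foxj1, which was selected with these controls. For 7 Gy against 0 Gy at day 11, a description, it gave 17, against 2.91% of all genes lower. A filter at 1 count gave 22 and DESeq2 8 there, without a share of all genes beside them. Nothing is read from the 7 Gy counts.

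Over time in irradiated cultures the block gave 9 at day 11 against day 7 at 4 Gy and 9 at day 11 against day 7 at 7 Gy, or 8 without Foxj1, which is description only there. Of all genes, 9.98% and 8.91% were higher with the block. A filter at 1 count gave 9 and 13, or 8 and 12 without Foxj1, against 6.76% and 6.08% of all genes higher. The response to 2 Gy at day 11 against day 7 had 1 with a filter at 1 count, and the response to 4 Gy had 6. These counts have no share of all genes beside them, and nothing is read from them. With culture as replicate block the response to 4 Gy had 1, against 0.233% of all genes lower.

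Leaving out each library in turn gave from 2 to 4 members called at day 7 against day 5 at 0 Gy (without day 5 replicate mTG11 and mTG12), 25 to 31 at day 11 against day 7 at 0 Gy and 32 to 35 at day 11 against day 5 at 0 Gy. It gave 0 to 0 at day 7 for 2 Gy and for 4 Gy against 0 Gy, and 0 to 1 for 7 Gy against 0 Gy at day 7. At day 11 it gave 0 to 0 for 2 Gy and for 4 Gy against 0 Gy and 0 to 3 for 7 Gy against 0 Gy. At day 11 against day 7 it gave 4 to 13 at 2 Gy, 3 to 7 at 4 Gy and 1 to 3 at 7 Gy, and 0 to 0 for the response to 2 Gy and to 4 Gy.

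Of 87 single gene calls, 62 held in every alternative that tested the gene and 25 were lost in at least 1. The 87 include calls of members with enough counts only through day 11, and calls of Foxj1. The 62 are therefore no support for a change of the group. Only 50 of the 87 passed filterByExpr and were tested with it. The sign of a log2 fold change turned for genes close to 0. Rfx2, 2 Gy against 0 Gy at day 11, was −0.20 and ran from −0.50 without replicate mTG11 of 2 Gy to 0.0754 without replicate mTG14 of 2 Gy. Rfx3, 2 Gy against 0 Gy at day 11, was −0.16 and ran from −0.45 without replicate mTG12 of 0 Gy to 0.52 without replicate mTG11 of 0 Gy.

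Rfx2, 4 Gy against 0 Gy at day 11, was −0.14 and ran from −0.39 without replicate mTG14 of 4 Gy to 0.18 without replicate mTG12 of 4 Gy. Trp73, 4 Gy against 0 Gy at day 11, was 0.02 and ran from −0.0439 without replicate mTG14 of 4 Gy to 0.0858 without replicate mTG11 of 4 Gy, with −0.02 without replicate mTG12 of 0 Gy. Cfap43, 4 Gy against 0 Gy at day 11, was 0.13 and ran from −0.19 without replicate mTG11 of 4 Gy to 0.35 without replicate mTG14 of 4 Gy.

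Without TMM factors the median log2 fold change over all genes moved from 0.04 to −0.11 at day 7 against day 5 and from 0.06 to −0.08 at day 11 against day 5. The cause was not tested.

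Each group had 3 libraries, many members had few counts, and bulk RNA does not give the number of ciliated cells. The controls of day 11 are shared by all doses of that day and by the comparisons of days, and they helped to choose Foxj1.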
